A study of Mus musculus with 12 samples.

Results

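Interneurons of the forebrain are inhibitory nerve cells that use GABA, and they are told apart by the peptides and calcium-binding proteins they make. The 8 genes described here are Sst, Vip, Npy and Cck (neuropeptide precursors), Pvalb and Calb2 (the calcium-binding proteins parvalbumin and calretinin), Reln (the secreted matrix protein reelin) and Lhx6 (a transcription factor). They were chosen by name, and each name matched 1 row among the 55385 genes of the expression table. The table holds 12 libraries of poly(A) RNA from the brains of male wild-type mice, labelled as strain C57/BL6J, with 3 mice in each of 4 groups. C_W mice were unstressed and received water, and C_O mice were unstressed and received krill oil. MS_W mice went through chronic unpredictable mild stress (CUMS) and received water, and MS_O mice went through CUMS and received krill oil. Water or krill oil was given by gavage, so the water groups received no other oil as a control. CUMS is a series of mild stressors at unforeseeable times that is used to model depression in rodents. Age is not in the labels, and each library came from 1 mouse. Levels are given in FPKM, that is, fragments divided by transcript length and by the mapped fragments of the library.

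As background, cortical interneurons arise in the embryonic ganglionic eminences. Lhx6 is switched on in cells of the medial eminence and is needed for the later Sst and Pvalb cells, while Vip cells and many Calb2 and Reln cells come from the caudal eminence. Pvalb cells fire fast and contact the cell body, Sst cells contact dendrites, and Vip cells inhibit mainly other interneurons. None of the 8 genes is restricted to cortical interneurons. Purkinje cells of the cerebellum also make Pvalb, cerebellar granule cells make Calb2 and Reln, olfactory bulb neurons make Calb2, and cortical pyramidal cells make much of the Cck. In whole tissue, fewer cells of a type and less RNA per cell cannot be told apart.

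Somatostatin and VIP transcription is known to respond to cyclic AMP through a short element, the cyclic AMP response element, in the promoter. The element TGACGTCA and its part TGACG were searched on both strands in the 250 bases before the RefSeq starts of the genes (build GRCm38.p6), which were listed for 7 of the 8 genes. The full element stood in the window of Sst, and its part stood in the windows of Sst, Vip and Cck. These 30-base stretches are shown because they hold a match, and the capitals mark it, 5′ to 3′ on the strand of the gene. Any part of the element in how the genes varied between libraries was not tested.
Sst, chr16:23890874-23890903, minus strand: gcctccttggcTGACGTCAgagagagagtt
Vip, chr10:5639127-5639156, plus strand: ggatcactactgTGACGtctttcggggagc
Cck, chr9:121495724-121495753, minus strand: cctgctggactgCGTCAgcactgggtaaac
The match began 48 bases before the start in Sst, 79 bases in Vip and 47 bases in Cck, where TGACG lies on the opposite strand and reads CGTCA. The full element is its own reverse complement, so its 2 matches to TGACG in Sst overlap it. The gene model of the expression table begins further upstream for Sst, and the Sst stretch lies inside its first exon. Of the 32851 promoter windows listed for mouse, 1.55% held TGACGTCA and 17.8% held TGACG, and neither was found in the windows of Npy, Pvalb, Reln or Lhx6.

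By regional markers 2 libraries stood apart, which was known from earlier results of these data. In C_O72 and MS_W95 the cerebellar gene Cbln3 was at 60.9 and 222 FPKM, against 0.0888 to 0.196 FPKM in the other 10 libraries. The Purkinje cell gene Pcp2 was at 31.3 and 114 FPKM in these 2 libraries, against 0.0622 to 0.212 FPKM in the other 10. The summed FPKM of 8 hindbrain markers (among them Hox genes and Slc6a5) was 77.8 in C_O72 and 29.2 in MS_W95, against 0.0173 to 0.0976 elsewhere. Hoxb2, Hoxb3, Hoxa5 and Hoxc4 were listed at the floor of the table, 0.0001, in all 10. The study describes the tissue as whole brain, while the defining markers of cerebellum and hindbrain were near 0 in 10 of the 12 libraries. The members' differences between groups are therefore given with all 12 libraries and with these 10. The 2 libraries correlated with each other at r = 0.970 over log2(FPKM + 1) of 21393 genes, and with the other 10 at r = 0.937 at most. Choroid plexus markers (summed FPKM 3.93 to 4796) and blood markers (11.4 to 348) also varied widely between libraries. Estimated counts summed to between 50912906 and 75678721 per library, and each member had at least 20 estimated counts in every library.

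Sst (ENSMUSG00000004366, mm10, chr16:23889573-23890958, minus strand) encodes somatostatin, an inhibitory peptide. It was at 236, 205 and 265 FPKM in C_W, at 231, 269.9 and 90.1 FPKM in C_O, at 265, 259 and 59.7 FPKM in MS_W and at 244, 108 and 168 FPKM in MS_O, in the order of mouse numbers. The lowest values were those of MS_W95 and C_O72, followed by those of MS_O46 and MS_O78, and all 4 groups overlapped.

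Vip (ENSMUSG00000019772, chr10:5639218-5647617, plus strand) encodes vasoactive intestinal peptide. It was at 9.17, 9.62 and 10.3 FPKM in C_W, at 10.2, 8.37 and 0.900 FPKM in C_O, at 4.88, 4.70 and 1.99 FPKM in MS_W and at 9.12, 6.44 and 7.44 FPKM in MS_O. Each MS_W library was below each C_W and each MS_O library, and C_O72 was the lowest of all.

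Npy (ENSMUSG00000029819, chr6:49822710-49829507, plus strand) encodes neuropeptide Y, which is made by many Sst cells and by neurogliaform cells. It was at 148, 144 and 133 FPKM in C_W, at 137, 109 and 8.85 FPKM in C_O, at 99.8, 88.7 and 14.2 FPKM in MS_W and at 150.4, 106 and 142 FPKM in MS_O. As for Vip, the MS_W libraries did not overlap with C_W or MS_O.

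Cck (ENSMUSG00000032532, chr9:121489824-121495639, minus strand) encodes cholecystokinin. It was at 155, 144 and 159.9 FPKM in C_W, at 166, 122 and 7.31 FPKM in C_O, at 80.2, 61.2 and 18.3 FPKM in MS_W and at 216, 88.4 and 128 FPKM in MS_O. The MS_W libraries again lay below those of C_W and MS_O, and the highest value was that of MS_O13.

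Pvalb (ENSMUSG00000005716, chr15:78191114-78206400, minus strand) had the reverse order for the 2 libraries that stood apart. It was at 70.2, 40.0 and 60.6 FPKM in C_W, at 67.6, 25.2 and 294 FPKM in C_O, at 12.1, 17.1 and 396 FPKM in MS_W and at 38.1, 9.73 and 14.9 FPKM in MS_O. Only C_O72 and MS_W95 exceeded 70.2 FPKM, and they are the libraries with cerebellar markers. The other 2 MS_W libraries lay below all C_W libraries.

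Calb2 (ENSMUSG00000003657, chr8:110137502-110168210, minus strand) had the widest range of any member among the 10 libraries, from 6.71 to 212 FPKM, a 31.5-fold span. It was at 55.0, 68.9 and 12.1 FPKM in C_W, at 6.71, 28.3 and 151 FPKM in C_O, at 104, 64.1 and 196 FPKM in MS_W and at 46.3, 211 and 212 FPKM in MS_O. Mice of the same group could differ more than group means did, as in MS_O, whose mean was 156 ± 95.2 FPKM (SD, n = 3).

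Reln (ENSMUSG00000042453, chr5:21884454-22344702, minus strand) was at 3.13, 3.84 and 2.13 FPKM in C_W, at 2.10, 3.37 and 2.55 FPKM in C_O, at 4.39, 3.34 and 7.01 FPKM in MS_W and at 3.09, 6.55 and 7.00 FPKM in MS_O. The highest values were in stressed mice, but each stressed group had 1 library among the values of the unstressed groups. Reln shares exon positions with Gm10475 on the opposite strand, and the strand setting of the counting is not given in the sources used here.

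Lhx6 (ENSMUSG00000026890, chr2:36081953-36105408, minus strand) was at 3.69, 3.53 and 4.22 FPKM in C_W, at 3.69, 4.29 and 0.176 FPKM in C_O, at 5.21, 6.53 and 0.0581 FPKM in MS_W and at 3.63, 1.33 and 1.50 FPKM in MS_O. It was near 0 in the 2 libraries that stood apart, and its highest values were in the other 2 MS_W mice. Lhx6 shares exon positions with Gm27953 on the same strand, so reads there could be counted to either.

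**Figure D1:**
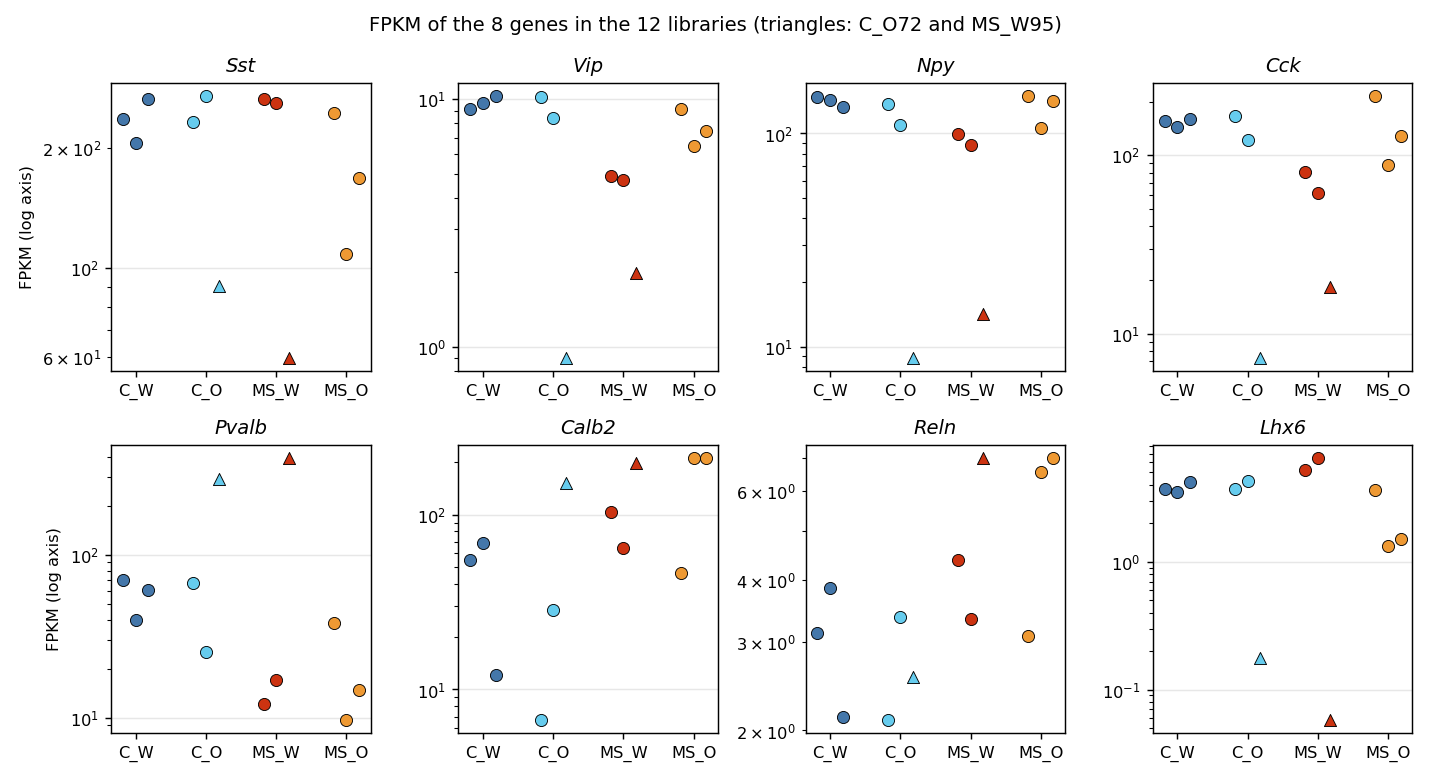
FPKM of each of the 8 genes on a log axis, with 1 point per library, by group, where triangles mark C_O72 and MS_W95. Vip, Npy and Cck in MS_W lie below C_W and MS_O, while Pvalb is highest and Lhx6 lowest in the 2 triangles.

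FPKM is scaled by transcript length, so levels can be compared between genes. By the median over 12 libraries the order was Sst (234 FPKM), Cck (125 FPKM), Npy (121 FPKM), Calb2 (66.5 FPKM), Pvalb (39.0 FPKM), Vip (7.90 FPKM), Lhx6 (3.66 FPKM) and Reln (3.35 FPKM). Sst was above Cck within each of the 12 libraries, and Pvalb was above Vip within each of the 12. Vip was above Lhx6 in 10 of 12. The other neighbours in this order changed places between libraries. Cck was above Npy in 6 of 12, and Npy above Calb2, Calb2 above Pvalb and Lhx6 above Reln in 7 of 12 each. Across libraries the range of every gene overlapped with that of its neighbour.

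The first comparison asks what stress did in mice given water (MS_W against C_W). Vip, Npy and Cck had lower values in all 3 stressed mice, Calb2 and Reln had higher mean log2 values, and none of the 8 genes passed an adjusted p of 0.05 in limma on log2(FPKM + 1). Vip was 3.86 ± 1.62 FPKM in MS_W and 9.71 ± 0.587 FPKM in C_W (SD, n = 3), with a log2 difference of -1.20 (SE 0.55, adjusted p = 0.482). Cck differed by -1.74 (SE 0.97, adjusted p = 0.544) and Npy by -1.47 (SE 0.94, adjusted p = 0.585). The log2 differences of the other 5 were 1.57 for Calb2, 0.53 for Reln, -0.31 for Pvalb, -0.39 for Lhx6 and -0.54 for Sst. The mean FPKM of Pvalb was nevertheless 2.49 times that of C_W, since MS_W95 was at 396 FPKM. The median over the 8 genes was -0.47, against 0.06 over all 21393 genes tested. No member had an unadjusted p under 0.05, which 10.5% of tested genes had, and 1 gene in all (0.00467%) passed the adjusted threshold. The values of MS_W and C_W did not overlap for 3 members, Vip, Npy and Cck, against 24.6% of all tested genes. With 3 mice against 3, an exact permutation test of a single gene cannot go below p = 0.1.

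Without C_O72 and MS_W95 the spread was smaller, and Vip passed. In these 10 libraries Vip was 4.79 ± 0.129 FPKM in 2 MS_W mice and fell by 0.89 on the log2 scale (SE 0.14, limma adjusted p = 0.0257). This was 1 of the 246 genes (1.15%) that passed in that fit. Over the other settings the adjusted p of Vip reached 0.780. Npy (-0.58, adjusted p = 0.147), Cck (-1.11, adjusted p = 0.160) and Pvalb (-1.87, adjusted p = 0.178) had unadjusted p under 0.05 as well, so that 4 members did, against 15.4% of all tested genes. The log2 difference of Pvalb was -0.31 with all libraries and -1.87 without the 2, and those of Sst and Lhx6 turned from below 0 to 0.16 and 0.51. Calb2 and Reln stood at 1.15 and 0.28. The groups did not overlap for 5 members in these libraries (Vip, Npy, Cck, Pvalb and Lhx6), against 38.8% of tested genes.

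Regional markers moved with this comparison. The summed FPKM of 7 cortical projection neuron markers was 342 to 394 in C_W and 91.4 to 152 in MS_W, with Slc17a7, the vesicular glutamate transporter of cortex, at 254 to 290.3 and 41.5 to 106 FPKM. The summed FPKM of 7 striatal projection neuron markers was 48.0 to 100.3 in C_W, 338 and 508 in MS_W31 and MS_W75, and 62.1 in MS_W95. The summed FPKM of 9 hypothalamic markers was 3.84 to 14.7 in C_W, 134 and 122 in MS_W31 and MS_W75 and 12.9 in MS_W95, and none of the 9 was at the floor in MS_W31 and MS_W75. For 5 pan-neuronal markers the summed FPKM was 862 to 943 in C_W and 655 to 717 in MS_W, without overlap. That of 4 blood markers was 135 to 181 in C_W, 25.8 and 11.4 in MS_W31 and MS_W75 and 348 in MS_W95. The part of these differences between tissues in the values of Vip, Npy, Cck and Lhx6 was not tested.

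The second comparison asks what stress did in mice given krill oil (MS_O against C_O). Reln was the member with the smallest unadjusted p, at 5.55 ± 2.14 FPKM in MS_O and 2.67 ± 0.641 FPKM in C_O (SD, n = 3), a log2 difference of 0.79 (SE 0.30, unadjusted p = 0.0249, adjusted p = 0.504). It was 1 of 8 members with an unadjusted p under 0.05, against 8.88% of tested genes, and 0.00467% of genes passed the adjusted threshold. Calb2 differed by 1.99 (SE 1.05, adjusted p = 0.610) and Pvalb by -2.10 (SE 1.22, adjusted p = 0.636). Npy and Cck, which had lower values in MS_W than in C_W, had log2 differences of 1.32 and 1.29 here, and Vip of 0.56. Those of Sst and Lhx6 were -0.12 and -0.04. The median over the 8 genes was 0.67, against 0.03 over all genes tested. The values of MS_O and C_O overlapped for all 8 members, while 12.2% of tested genes did not overlap.

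Without the 2 libraries Npy, Cck and Vip had log2 differences of 0.10, -0.08 and -0.25 in this comparison, so the higher values in MS_O rested on C_O72. Sst and Pvalb were at -0.60 and -1.17. Calb2 (3.10, SE 0.93, adjusted p = 0.335), Reln (0.77, SE 0.32, adjusted p = 0.351) and Lhx6 (-0.73, SE 0.27, adjusted p = 0.341) had unadjusted p under 0.05, 3 of 8 against 13.6% of tested genes. Calb2 and Lhx6 did not overlap between the groups, against 26.8% of tested genes. Calb2 rested on few mice, since C_O then holds C_O15 and C_O30 at 6.71 and 28.3 FPKM.

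Olfactory bulb markers moved with Calb2 and Reln. The summed FPKM of 5 such markers (Eomes, Tbx21, Cdhr1, Doc2g and Nmb) was 203 and 211 in MS_O46 and MS_O78, which had the highest Calb2 of the 10 libraries, and 2.47 and 6.13 in C_O15 and C_W70, which had the lowest. It was 25.6 to 72.7 in the other 6 of these libraries. In C_O72 and MS_W95 it was 6.56 and 10.6, while Calb2 was at 151 and 196 FPKM beside the cerebellar markers. The part of olfactory bulb or cerebellar tissue in the differences of Calb2 and Reln was not tested.

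**Figure D2:**
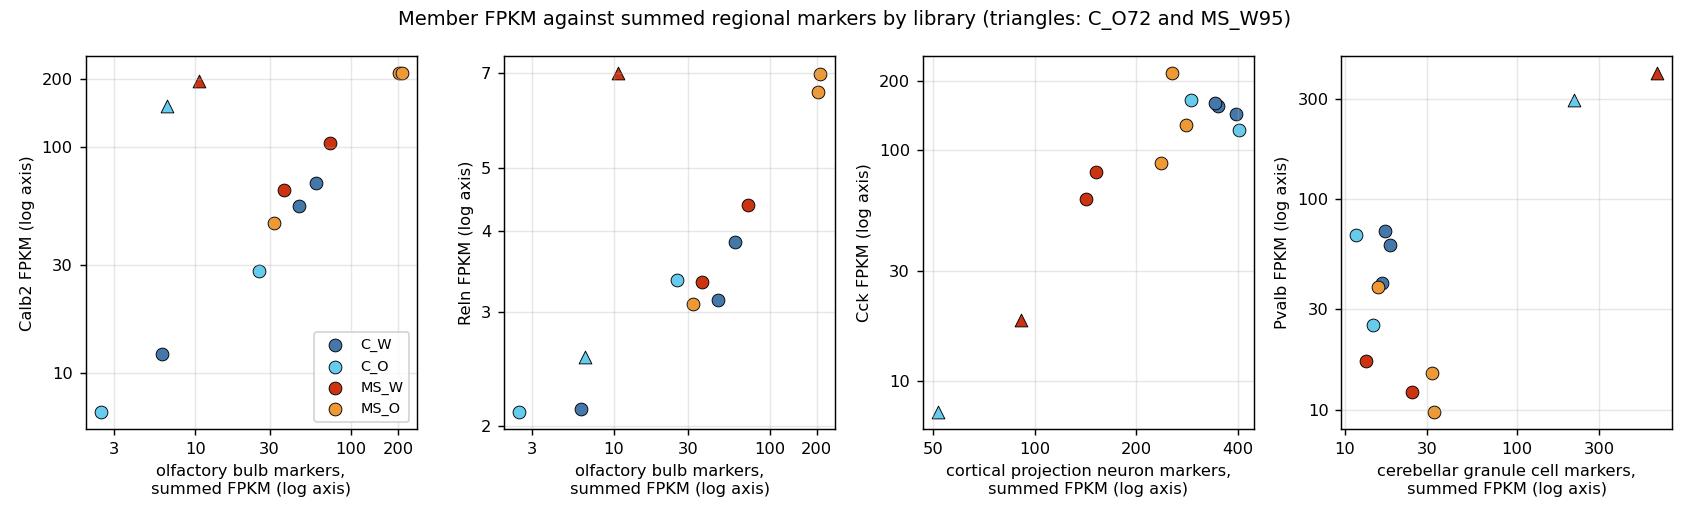
FPKM of Calb2, Reln, Cck and Pvalb against the summed FPKM of regional markers in each library, both on log axes, with colours for the groups and triangles for C_O72 and MS_W95. Calb2 and Reln rise with the olfactory bulb markers among the 10 circles, Cck is lowest where cortical markers are lowest, and Pvalb is highest in the 2 libraries with cerebellar granule cell markers.

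The third comparison asks what krill oil did in unstressed mice (C_O against C_W). None of the 8 members had an unadjusted p under 0.05 in limma, against 3.55% of tested genes, and 0% passed the adjusted threshold. Cck differed by -1.47 (SE 0.97, adjusted p = 0.908), Npy by -1.43 (SE 0.94, adjusted p = 0.908), Vip by -0.87 (SE 0.55, adjusted p = 0.908) and Pvalb by 0.52 (SE 1.22, adjusted p = 0.946). The log2 differences of the other 4 were -0.64 for Lhx6, -0.39 for Sst, -0.19 for Calb2 and -0.13 for Reln. Without C_O72 and MS_W95 those of Cck, Npy, Vip and Pvalb were -0.10, -0.21, -0.06 and -0.41, so that the first 3 came from C_O72. Calb2 was then at -1.30 (SE 0.93, adjusted p = 1), Reln at -0.11, Sst at 0.093 and Lhx6 at 0.051. No member had an unadjusted p under 0.05 in the 10 libraries either, against 4.06% of genes. No member was without overlap in 12 or in 10 libraries, while 9.42% and 19.3% of tested genes were.

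The fourth comparison asks what krill oil did in stressed mice (MS_O against MS_W), and it shares the MS_W mice with the first. Vip was 7.67 ± 1.35 FPKM in MS_O, Npy 133 ± 23.7 FPKM and Cck 144 ± 65.1 FPKM (SD, n = 3), against 3.86 ± 1.62, 67.6 ± 46.6 and 53.2 ± 31.7 FPKM in MS_W. All 3 had higher values in each MS_O mouse than in any MS_W mouse, against 12.3% of all tested genes that did not overlap. Their log2 differences were 0.89 (SE 0.55) for Vip, 1.36 (SE 0.94) for Npy and 1.56 (SE 0.97) for Cck, each with adjusted p = 0.837. No member had an unadjusted p under 0.05, against 6.09% of genes, and 0.00467% of genes passed the adjusted threshold. Pvalb differed by -1.27, Lhx6 by -0.29, Calb2 by 0.22, Reln by 0.13 and Sst by 0.04. The summed FPKM of cortical projection neuron markers was 236 to 281 in MS_O against 91.4 to 152 in MS_W, and that of pan-neuronal markers 783 to 865 against 655 to 717, both without overlap. Their part in the values of Vip, Npy and Cck was not tested.

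When C_O72 and MS_W95 were left out, 5 members had an unadjusted p under 0.05, against 8.54% of tested genes, and none passed the adjusted threshold. Lhx6 was lower in MS_O (log2 difference -1.19, SE 0.27, adjusted p = 0.203), as was Sst (-0.67, SE 0.28, adjusted p = 0.572). Vip (0.57, SE 0.14, adjusted p = 0.240), Npy (0.48, SE 0.16, adjusted p = 0.461) and Cck (0.93, SE 0.32, adjusted p = 0.472) were higher. These 5 did not overlap between the groups, against 22.3% of genes. Calb2 and Reln were at 0.64 and 0.38. Pvalb was then at 0.29, so its lower level in MS_O came from MS_W95. Nkx2-1 and Lhx8, which mark the ventral forebrain, were at 1.37 and 3.08 FPKM in MS_W31 and at 1.59 and 3.99 FPKM in MS_W75, the 2 libraries with the highest Lhx6, and Nkx2-1 was at 0.25 FPKM or below in MS_O. The part of that tissue in the difference of Lhx6 was not tested.

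**Figure D3:**
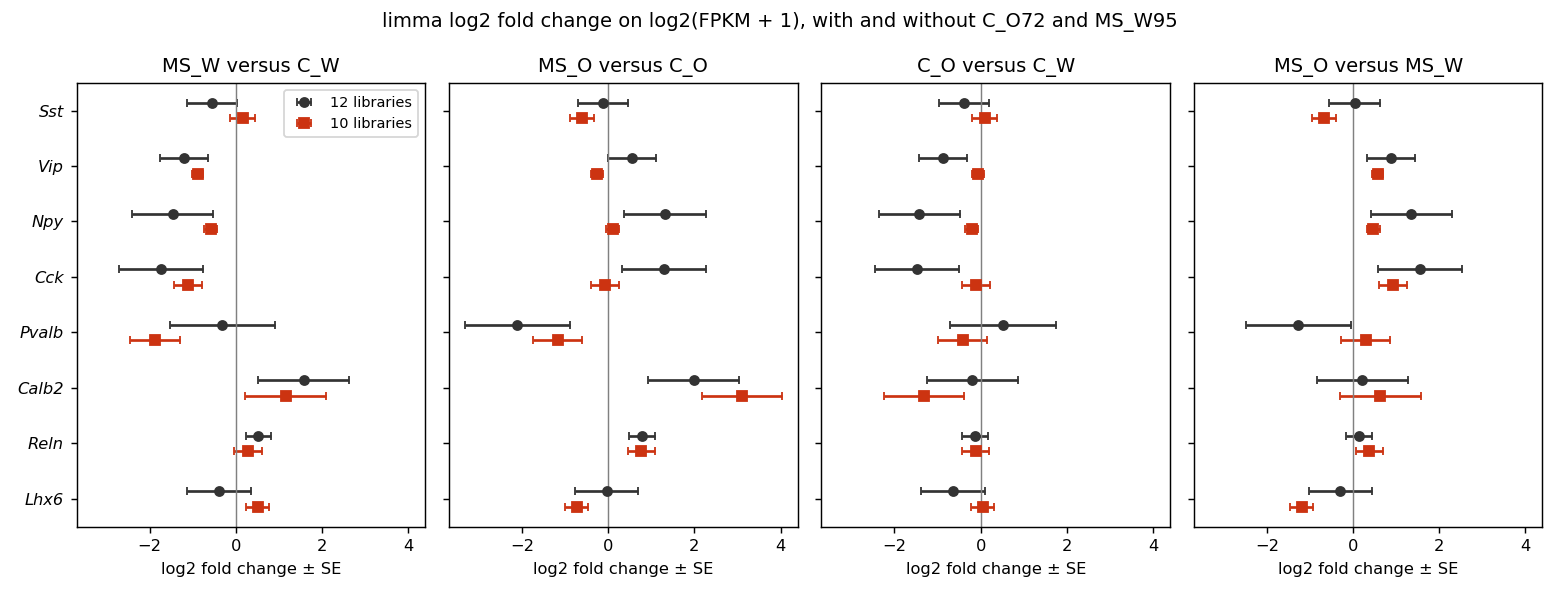
log2 difference on log2(FPKM + 1) for each gene in the 4 comparisons between groups, with bars of 1 standard error from limma, for all 12 libraries (circles) and for the 10 without C_O72 and MS_W95 (squares). Standard errors of Vip, Npy and Cck are smaller in the 10 libraries, and Vip against C_W in MS_W (-0.89) is the value that passed the adjusted threshold.

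Whether the stress difference itself changed with krill oil was tested as an interaction. The stress difference under krill oil minus that under water was 1.76 for Vip (SE 0.78, unadjusted p = 0.0475, adjusted p = 0.665), 2.78 for Npy (SE 1.33, adjusted p = 0.665) and 3.03 for Cck (SE 1.37, adjusted p = 0.665). It was 0.43 for Sst, 0.41 for Calb2, 0.35 for Lhx6, 0.26 for Reln and -1.79 for Pvalb. Vip was the 1 member with an unadjusted p under 0.05, against 7.23% of tested genes, and 0% passed the adjusted threshold. In the 10 libraries the values of Vip, Npy and Cck were 0.63, 0.69 and 1.04 and that of Lhx6 was -1.24, and 3 members (Vip, Npy and Lhx6) had an unadjusted p under 0.05, against 7.51% of genes. Over both diets, stressed mice had higher values of Reln (0.66, SE 0.21, unadjusted p = 0.0110, adjusted p = 0.328) and Calb2 (1.78, SE 0.74, unadjusted p = 0.0368, adjusted p = 0.376), while Pvalb differed by -1.21 (SE 0.86, adjusted p = 0.592). Sst differed by -0.33, Vip by -0.32, Cck by -0.22, Lhx6 by -0.21 and Npy by -0.075. These were 2 of 8 members with an unadjusted p under 0.05, against 12.5% of genes, and 0.00935% passed the adjusted threshold. Without the 2 libraries there were 5 (Vip, Cck, Pvalb, Calb2 and Reln), against 22.2% of genes, and Vip passed (-0.57, SE 0.10, adjusted p = 0.0458) with 0.762% of genes. Across its other settings this adjusted p of Vip reached 0.964. Over both stress states, the log2 differences with krill oil were -0.47 for Lhx6, -0.38 for Pvalb, -0.18 for Sst, -0.035 for Npy, 0.0034 for Reln, 0.0080 for Vip, 0.013 for Calb2 and 0.045 for Cck, with no member at an unadjusted p under 0.05, against 3.22% of genes and 0.00467% past the adjusted threshold. In the 10 libraries 2 members had one (Vip and Lhx6), against 4.96% of genes.

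Receptors of these peptides were measured beside them. Of 14 receptor genes 13 were tested, and in MS_W against C_W 3 had higher values at an unadjusted p under 0.05 (Cckar, Sstr5 and Npy2r) and 0 had lower ones, against 10.5% of all tested genes in either direction. None passed the adjusted threshold with 12 libraries. The list median was -0.44, against 0.06 over all genes tested. The summed FPKM of the 14 genes was 91.7 to 97.9 in C_W and 45.1 to 94.5 in MS_W. Over the 10 libraries the cholecystokinin receptor Cckar (log2 difference 0.51, SE 0.06, adjusted p = 0.00637) and the somatostatin receptor Sstr5 (0.55, SE 0.08, adjusted p = 0.0180) rose. Both were low, at no more than 0.47 and 0.57 FPKM in any of these libraries. In that fit 3 receptor genes were higher and 3 lower at an unadjusted p under 0.05, against 15.4% of tested genes. The lower ones were Sstr4, Npy1r and Cckbr, named after their values were seen, and Cckbr, the main cholecystokinin receptor of the brain, was at 22.7 to 24.0 FPKM in C_W and at 15.0 and 12.2 FPKM in MS_W31 and MS_W75. In MS_O against MS_W the same 2 genes had log2 differences of -0.44 and -0.37 in 12 libraries, and Cckar fell in the 10 (-0.50, SE 0.06, adjusted p = 0.0122). In MS_O against C_O the VIP receptor Vipr2 had the smallest p of the list (2.04, SE 0.66, adjusted p = 0.479), and it was highest in MS_O46 and MS_O78 (12.4 and 10.5 FPKM), the libraries with the most olfactory bulb markers.

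Of 7 genes for reelin receptors and effectors, the receptor gene Vldlr (0.46, SE 0.13, adjusted p = 0.304) and the adaptor gene Crkl (0.42, SE 0.18, adjusted p = 0.451) had higher values in MS_W than in C_W at an unadjusted p under 0.05, and 0 had lower ones. These 2 of 7 compare with 10.5% of all tested genes. Crkl was at 14.2 to 19.7 FPKM in C_O72 and MS_W95, against 9.59 to 12.8 FPKM in the other 10 libraries. Vldlr was at 5.97 to 10.4 FPKM in C_O72 and MS_W95, against 5.35 to 7.41 FPKM in the other 10. In MS_O against C_O, where the share of all genes was 8.88%, 2 were higher and 0 lower, Lrp8, the other reelin receptor gene (1.11, SE 0.34, adjusted p = 0.479), and the kinase gene Fyn (0.48, SE 0.18, adjusted p = 0.499). Of 10 genes for peptide processing and granules, Scg2, a granule protein gene, had higher values in MS_W (1.03, SE 0.29, adjusted p = 0.303) and in MS_O (0.79, SE 0.29, adjusted p = 0.501), each against its unstressed group. It was 1 of 10 in each, near the shares of 10.5% and 8.88% over all tested genes. The list medians were -0.09 and 0.02 in these 2 comparisons. No processing gene had a lower value in MS_W at an unadjusted p under 0.05 with 12 libraries. In the 10 libraries 1 of 10 did (Pcsk1, a prohormone convertase gene, -0.50, SE 0.22, adjusted p = 0.321), against 15.4% of all tested genes in either direction.

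Genes of GABA synthesis and transport are shared by these interneurons and other GABA neurons. In MS_W against C_W 4 of 5 had higher values at an unadjusted p under 0.05 (Gad2, Slc32a1 and Abat among them), against 10.5% of all tested genes, with a list median of 0.84 against 0.06 over all genes. In the 10 libraries 3 of 5 did, against 15.4%. Gad2, which makes GABA, differed by 1.02 (SE 0.24, adjusted p = 0.252), and Slc32a1, which loads it into vesicles, by 0.94 (SE 0.27, adjusted p = 0.306). Without the 2 libraries Gad2 rose by 1.33 (SE 0.17, adjusted p = 0.0130), and Abat, which breaks GABA down, by 0.78 (SE 0.14, adjusted p = 0.0433). In MS_O against C_O Gad1 differed by 1.49 (SE 0.37, adjusted p = 0.479) and Gad2 by 0.86 (SE 0.24, adjusted p = 0.479), 2 of 5 against 8.88% of tested genes. Over the 10 libraries 4 of 5 had higher values, against 13.6%. The summed FPKM of the 5 genes was 358 and 357 in MS_W31 and MS_W75, where striatal markers were high. It was 436 and 401 in MS_O46 and MS_O78, where olfactory bulb markers were high. Striatal markers did not always go with it, at 346 in MS_O13 with a GABA sum of 232 and at 62.1 in MS_W95 with 297. The part of those regions, which are rich in GABA neurons, was not tested.

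Among 9 genes of the medial ganglionic eminence lineage, 2 had higher (Nkx2-1 and Lhx8) and 2 lower values (Satb1 among them) in MS_W than in C_W at an unadjusted p under 0.05, against 10.5% of all tested genes. Over 10 libraries Nkx2-1 (1.26, SE 0.08, adjusted p = 0.000596) and Lhx8 (2.13, SE 0.16, adjusted p = 0.00144) rose, while Satb1, which Sst cells need to mature, differed by -1.18 (adjusted p = 0.144). In that fit MS_W holds only MS_W31 and MS_W75, where the summed FPKM of hypothalamic markers was 134 and 122. Nkx2-1 and Lhx8 were at the floor, 0.0001 FPKM, in MS_W95 and C_O72. The part of hypothalamic tissue in their rise was not tested. Among 7 genes of the caudal lineage 1 was higher (Nr2f2) and 1 lower (Nr2f1) in MS_W than in C_W with 12 libraries, against 10.5% of tested genes. In MS_O against C_O 2 of these 7 were higher, against 8.88% of tested genes, Sp8 (2.36, SE 0.73, adjusted p = 0.479) and Adarb2 (0.79, SE 0.24, adjusted p = 0.479), and Sp8 is also made by olfactory bulb interneurons. Of 20 further interneuron markers 3 were higher (Nos1, Tac1 and Pthlh) and 1 was lower (Lamp5, a marker of neurogliaform cells, -1.38, SE 0.31, adjusted p = 0.223) in MS_W than in C_W, against 10.5% of tested genes. In the 10 libraries 6 were higher and 3 lower, against 15.4% of genes. In MS_O against C_O 2 of the 20 were higher and 4 lower, against 8.88% of tested genes. Lamp5 and Pthlh, named after their values were seen, were among the lower, so Pthlh went the other way than under water. In C_O against C_W, 2 of the 72 genes on these 7 lists had an unadjusted p under 0.05, Lrp8 (-0.86, adjusted p = 0.908) and Pthlh (0.60, adjusted p = 0.908), while 3.55% of all tested genes did.

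Members varied together in sets. Because the libraries fell into 10 and 2, correlations of log2(FPKM + 1) are given over the 10, with permutation p adjusted over the 28 pairs of members. Vip, Npy and Cck formed one set, and Pvalb also went with Vip and Cck. Pearson's r was 0.917 for Vip and Cck (adjusted permutation p = 0.00245), 0.922 for Npy and Cck (adjusted permutation p = 0.00245) and 0.846 for Vip and Npy (adjusted permutation p = 0.0132). Spearman's rho was 0.842, 0.818 and 0.612 for these pairs (adjusted permutation p = 0.0323, 0.0326 and 0.149). Leaving out the 2 libraries farthest from the median of the first gene gave r = 0.782, 0.796 and 0.579. Sst did not belong to that set over the 10 libraries, with r = 0.10, -0.01 and 0.16 to Vip, Npy and Cck. Over all 12 libraries these r were 0.746, 0.803 and 0.767 (adjusted permutation p = 0.0326 each). Spearman's rho over the 12 was 0.434, 0.245 and 0.378 (adjusted permutation p = 0.372, 0.565 and 0.407).

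Calb2 and Reln formed another set, with r = 0.939 (adjusted permutation p = 0.00245), rho = 0.927 (adjusted permutation p = 0.0084) and r = 0.928 without the 2 farthest libraries. Pvalb went with Vip (r = 0.828, adjusted permutation p = 0.0132, rho = 0.830, adjusted permutation p = 0.0323, and r = 0.944 without the 2 farthest) and against Reln (r = -0.817, adjusted permutation p = 0.0132, rho = -0.794, adjusted permutation p = 0.0392, and r = -0.751 without them). Over all 12 libraries r of Pvalb was -0.546 with Vip and -0.600 with Cck (adjusted permutation p = 0.0868 and 0.0623). It was -0.734 with Npy and -0.231 with Reln (adjusted permutation p = 0.0352 and 0.550). Sst and Lhx6, both of the medial lineage, had r = 0.892 (adjusted permutation p = 0.00245), rho = 0.855 (adjusted permutation p = 0.0323) and r = 0.607 without the 2 farthest. Pvalb, also of the medial lineage, had r = 0.294 with Lhx6 (adjusted permutation p = 0.543) and r = 0.481 with Sst (adjusted permutation p = 0.253). In all, 10 of the 28 pairs had an adjusted p under 0.05 for r and 6 for rho. Those not named above were Cck with Pvalb (r = 0.756, adjusted permutation p = 0.0378), Pvalb with Calb2 (r = -0.782, adjusted permutation p = 0.0238) and Sst with Reln (r = -0.740, adjusted permutation p = 0.0393). None of these passed for rho. The libraries of a group share its treatment, so these relations also hold differences between groups.

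**Figure D4:**
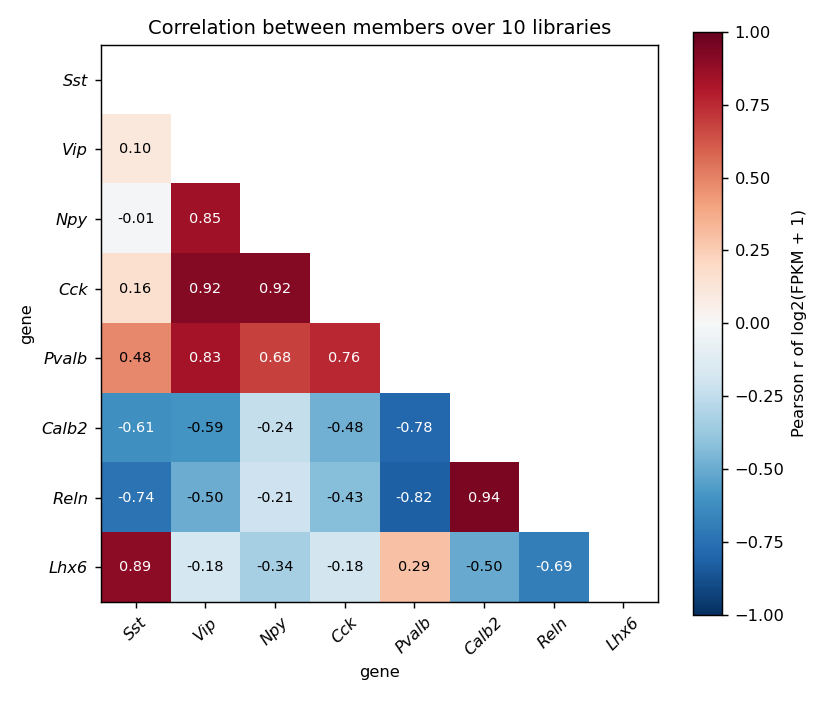
Pearson's r of log2(FPKM + 1) for the 28 pairs of genes over 10 libraries, without C_O72 and MS_W95, from blue (-1) to red (1). Vip, Npy and Cck stand together, as do Calb2 and Reln, and Sst with Lhx6, while Pvalb and Reln are opposed.

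The genes most like each member over all 12 libraries were ranked among genes with a mean of at least 1 FPKM, as a description without a test. Members came up for each other, since Cck (r = 0.986) was second for Vip, Vip was first for Cck and Lhx6 (r = 0.962) was second for Sst. Npy was closest to Basp1 (r = 0.992), Dlg4 and R3hdm1 (r = 0.990 each), of which Dlg4 encodes the postsynaptic scaffold PSD-95. Pvalb was closest to Mapk6 (r = 0.977), Tagln3 and Scg3, Calb2 to 0610010K14Rik (r = 0.946), Slc6a11 and Trim26, Reln to Crtc3 (r = 0.956), Lgr4 and Cemip2, and Lhx6 to Slc24a4 (r = 0.981), Klf5 and Sh2d5. Others among the nearest genes were Slc25a14 (r = 0.968) and Sgsm2 for Sst, Iqsec2 (r = 0.989) and Nlk for Vip, and Iqsec2 for Cck. Over the 10 libraries without C_O72 and MS_W95, r of these genes with their members ran from 0.738 (Dlg4 with Npy) to 0.978 (Tagln3 with Pvalb). These 10 are among the 12 by which the genes were picked. When genes were ranked over those 10, the nearest genes to Calb2 were Th (r = 0.993), Cdhr1 (r = 0.989) and Scgn (r = 0.988), which are made in the olfactory bulb. In that ranking no member was among the 3 nearest genes of another. Cabp1 (r = 0.979) came first for Vip, Adamtsl5 (r = 0.960) for Cck and Nyap1 (r = 0.968) for Sst. This second ranking was added after the first was seen.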

How the data were processed

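Poly(A) RNA of 12 mouse brains was sequenced by the authors, who per the labels used cutadapt 1.9, HISAT2 2.0.4 and StringTie 1.3.4d with build mm10. FPKM values and estimated count values per gene were deposited by the authors. Estimated counts were rounded to whole numbers, and they equal FPKM times length times a library factor (median deviation 0.0326% over 2516 genes with 1 transcript), so they are not reads. Genes without an estimate were deposited at 0.0001 FPKM, and 205 values lay below it.

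Differences were tested with limma 3.58.1 under R 4.3.3, in 1 fit of the 4 groups with a variance trend, on log2(FPKM + 1). The 21393 genes whose mean reached 0.1 FPKM were tested, with Benjamini-Hochberg adjustment over all of them. The pseudocount of 1 understates changes of low genes such as Lhx6. The fit was tested on simulated data. Alternatives were pseudocounts of 0.1 and 0.01, other filters, quantile normalization, median centring, pairwise fits, edgeR 4.0.16 and DESeq2 1.42.0 on estimated counts, each library left out, and 10 libraries. Correlations used 100000 permutations (two-sided). All 8 members were named in each comparison, and up to 3 genes per pathway list by smallest p. Regional markers were summed as FPKM. The members, the lists and the 10 libraries were chosen with earlier results of these data known. Samples are single mice by their labels. Estimated counts are not reads, so no counting interval is given. Promoter windows are from RefSeq. A few genes that the naming rule selects are not reported here.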

Additional observations from a re-analysis of the deposited data

Results flagged for a closer look

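The stress difference of Vip changed with krill oil by 1.76 on the log2 scale (SE 0.78, limma unadjusted p = 0.0475), which came up because the difference between the 2 stress effects was itself tested. It did not pass adjustment over all tested genes (adjusted p = 0.665). Vip was lower in 3 of 3 MS_W mice than in any C_W mouse, while MS_O and C_O mice overlapped, with C_O72 the lowest of them at 0.900 FPKM. In the 10 libraries without C_O72 and MS_W95 the change was 0.63 (adjusted p = 0.456), and over the settings tried the adjusted p lay between 0.421 and 0.885. No other member had an unadjusted p under 0.05 for this difference in the limma test with 12 libraries, and Vip itself had 0.0516 with quantile normalization and 0.0774 with DESeq2. Outliers within a group were not looked for by a test, since each group holds 3 mice.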

How the results depend on the processing

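No adjusted call of a member was made with 12 libraries, and the calls that a setting added were both Vip in the 10 libraries without C_O72 and MS_W95. Counts of members below are those with an unadjusted p under 0.05, and the share of all tested genes moved as well. In the 10 libraries this share was 15.4% for MS_W versus C_W, 13.6% for MS_O versus C_O and 8.54% for MS_O versus MS_W. It was 7.51% for the interaction, 22.2% for stress over both diets and 4.96% for krill oil over both stress states. With only the compared groups fitted, 2953 of 21393 genes had such a p for MS_W versus C_W and 1126 for MS_O versus MS_W. Against 0 for MS_W versus C_W, there was 1 with quantile normalization and 1 with median centring (Vip in both), 2 when only the compared groups were fitted, 2 with DESeq2 and 4 in the 10 libraries. For MS_O versus C_O (1 in the report) there were 2 with DESeq2 and 3 in the 10 libraries. For MS_O versus MS_W (0) there were 2 when only the compared groups were fitted, 1 with DESeq2 and 5 in the 10 libraries. For the interaction (1) there were 0 with either smaller pseudocount, 0 without a filter, 0 with median centring, 0 with edgeR and 3 in the 10 libraries. The count stayed at 1 with quantile normalization and with DESeq2, but the member was Cck (unadjusted p = 0.0492) and Pvalb (unadjusted p = 0.0262), while Vip had 0.0516 and 0.0774. For stress over both diets (2) there was 1 with edgeR, 1 with DESeq2 and 5 in the 10 libraries. For krill oil over both stress states (0) there were 2 in the 10 libraries. With DESeq2 the unadjusted p was under 0.05 for 2637 of 35077 genes in MS_W versus C_W and 2307 in MS_O versus C_O. It was so for 1706 in MS_O versus MS_W, 2299 in the interaction and 2809 in stress over both diets. The cause of these changes in counts was not tested, other than that fewer samples enter the fits of the 10 libraries.

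Leaving out 1 library at a time gave 0 to 3 members for MS_W versus C_W (3 without C_O72, 1 without C_O15 and 1 without MS_W75), 0 to 2 for MS_O versus C_O (2 without MS_W95 or MS_O13, 0 without C_O15, MS_O46 or MS_O78) and 0 to 2 for C_O versus C_W (2 without C_O15). It gave 0 to 3 for MS_O versus MS_W (3 without C_O72), 0 to 3 for the interaction (3 without C_O15, C_O30 or MS_W31, 2 without C_O72 and 0 without any 1 of the other 8), 1 to 4 for stress over both diets (4 without C_O72, and 1 without C_W70, C_O15, C_O30, MS_W31, MS_O46 or MS_O78) and 0 to 1 for krill oil over both stress states (1 without C_O72 or MS_W95). Where an arm then held 2 libraries, their spread was shared with the other groups. Counts over all tested genes moved as well. Without C_O72, 3388 of 21393 had an unadjusted p under 0.05 for MS_W versus C_W, against 2245 with 12 libraries. In that fit 1951 did for MS_O versus MS_W and 4122 for stress over both diets, against 1303 and 2666. Without C_O15, 1768 did for C_O versus C_W and 2186 for the interaction, against 760 and 1546. For MS_O versus C_O, 2950 did without MS_O13 and 918 without MS_O46, against 1899.

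Of 56 log2 differences of members, 32 changed sign under at least 1 setting. In the 10 libraries these were, for MS_W versus C_W, Sst (0.16) and Lhx6 (0.51), for MS_O versus C_O, Vip (-0.25) and Cck (-0.077), for MS_O versus MS_W, Sst (-0.67) and Pvalb (0.29), for C_O versus C_W, Pvalb (-0.41), Sst (0.093) and Lhx6 (0.051), for the interaction, Sst (-0.76), Pvalb (0.70) and Lhx6 (-1.24), and for krill oil over both stress states, Npy (0.13) and Calb2 (-0.33). On estimated counts Pvalb was at 1.17 (edgeR) and 1.18 (DESeq2) for MS_W versus C_W, where MS_W95 holds most of the MS_W counts, and Sst at -0.13 (both) for MS_O versus MS_W. With edgeR and DESeq2 Calb2 was at 0.39 and 0.40 for C_O versus C_W, Lhx6 at -0.37 (both) for the interaction and Npy at 0.14 (both) for krill oil over both stress states, and with DESeq2 Calb2 was at -0.016 for the interaction. With pseudocounts of 0.1 and 0.01 Lhx6 was at 0.30 and 0.44 for MS_O versus C_O, and at 0.21 and 0.55 for MS_O versus MS_W. For krill oil over both stress states, these pseudocounts gave -0.040 and -0.050 for Vip, -0.00185 and -0.00349 for Calb2 and -0.00518 and -0.0065 for Reln. With 1 library left out, MS_W versus C_W ran from -0.90 to 0.16 for Sst, from -1.87 to 0.59 for Pvalb and from -0.91 to 0.51 for Lhx6. MS_O versus C_O ran from -0.60 to 0.18 for Sst, from -0.25 to 1.03 for Vip, from -0.077 to 2.09 for Cck and from -0.73 to 0.35 for Lhx6. MS_O versus MS_W ran from -0.67 to 0.40 for Sst, from -2.17 to 0.29 for Pvalb, from -0.16 to 0.94 for Calb2, from -0.066 to 0.44 for Reln and from -1.19 to 0.23 for Lhx6. C_O versus C_W ran from -0.41 to 1.33 for Pvalb, from -0.69 to 0.093 for Sst, from -1.30 to 0.84 for Calb2, from -0.30 to 0.016 for Reln and from -1.03 to 0.051 for Lhx6. The interaction ran from -0.28 to 0.79 for Sst, from -0.63 to 1.52 for Calb2 and from -0.55 to 0.87 for Lhx6. Stress over both diets ran from -0.57 to 0.022 for Sst, from -0.68 to 0.37 for Npy, from -0.91 to 0.17 for Cck and from -0.56 to 0.24 for Lhx6. Krill oil over both stress states ran from -0.53 to 0.065 for Sst, from -0.23 to 0.41 for Vip, from -0.48 to 0.57 for Npy, from -0.35 to 0.73 for Cck, from -0.84 to 0.41 for Pvalb, from -0.54 to 0.53 for Calb2 and from -0.096 to 0.16 for Reln. The other 24 kept their sign in every setting.

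Of 28 pairs of members, 13 were correlated at an adjusted permutation p under 0.05 over 12 libraries, 10 over the 10 libraries, and 9 over 12 libraries less the 2 farthest from the median of the first gene. Calb2 and Reln were not among the 9 (r = 0.712, adjusted permutation p = 0.0667). Tested genes with an unadjusted p under 0.05 for MS_W versus C_W numbered 2245, and 1425 to 3388 over the settings. No paired analysis was possible because mouse numbers differ between groups. Protein sequences of the members were not analysed here.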
